A study of Rattus norvegicus with 16 samples.

Results

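The 10 core circadian clock genes Arntl, Clock, Per1, Per2, Per3, Cry1, Cry2, Nr1d1, Nr1d2 and Dbp were examined in RNA sequencing libraries of the rat right ventricle. They were taken by symbol from the 32754 gene entries of the count files. Each symbol occurs once, and all 10 are among the 13458 genes with enough counts to be tested. The tissue came from female Sprague Dawley rats of 20 to 21 weeks, and the 4 groups cross genotype with surgery. KO PAB holds ERalpha -/- rats (called KO) after 10 weeks of pulmonary artery banding, a surgical narrowing that raises the pressure against which the right ventricle pumps. KO SHAM holds ERalpha -/- rats with sham surgery, WT PAB wild-type rats with the same banding, and WT SHAM wild-type rats with sham surgery. Each group has 4 libraries, and a number after the group name gives the replicate. It is not stated in the labels how the ERalpha (estrogen receptor alpha) mutation was made, whether replicates are separate animals, or at what time of day tissue was taken. The p-values therefore measure the spread between these samples.

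The clock is a feedback loop of transcription that runs in nearly every cell of the body, heart muscle included. The proteins of Arntl (also named Bmal1) and Clock form the activator, which binds E-box sequences and switches on the Per, Cry, Nr1d and Dbp genes. PER and CRY proteins return to block the activator, the nuclear receptors REV-ERB alpha and beta (Nr1d1 and Nr1d2) repress Arntl, and Dbp is a direct output that activates genes through D-box sequences. In mouse and rat tissues Arntl therefore peaks at the opposite time of day to Nr1d1, Dbp and Per3, and Cry1 peaks late, near the rise of Arntl.

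Promoters are shown to give the letters of the motifs that clock proteins are known to bind, where these occur. RefSeq promoter windows, from 250 bases before to 50 bases after a transcript start in the rat build GRCr8, were found for 9 of the 10 genes (11 windows, with a second start for Clock and for Nr1d1). Each window was searched on both strands for the E-box CACGTG, its variant CACGTT, the D-box as TTATGTAA or TTACGTAA, and AGGTCA, the core to which REV-ERB and ROR receptors bind. No match of one motif overlapped another. 6 windows held a match and 5 did not (both Clock windows, Per1, Per3 and Dbp), while of 33469 windows of all genes 6.42% held CACGTG, 4.83% CACGTT, 1.01% a D-box and 16.2% AGGTCA. Of the 11 windows 1 held CACGTG, 3 held CACGTT, 1 a D-box and 2 AGGTCA. The 4 windows below show each of the motif kinds, with matches in capitals. The window of Arntl, on the plus strand at chr1:176766078-176766377, has AGGTCA 15 bases before the start. That of Per2, on the minus strand at chr9:99496944-99497243, has a D-box 192 and CACGTT 62 bases before it. That of Cry2, on the minus strand at chr3:98860388-98860687, has CACGTT on the opposite strand, so that its reverse complement stands in capitals, 212 bases before. The second window of Nr1d1, on the minus strand at chr10:84229405-84229704, has the E-box CACGTG 191 bases before. A match is a description of letters and not a site shown to be bound.
Arntl: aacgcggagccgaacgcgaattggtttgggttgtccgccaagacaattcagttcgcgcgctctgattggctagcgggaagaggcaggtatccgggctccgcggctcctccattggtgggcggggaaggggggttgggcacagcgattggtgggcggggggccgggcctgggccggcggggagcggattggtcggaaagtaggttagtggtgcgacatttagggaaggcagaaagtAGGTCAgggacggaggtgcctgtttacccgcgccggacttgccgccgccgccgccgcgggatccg
Per2: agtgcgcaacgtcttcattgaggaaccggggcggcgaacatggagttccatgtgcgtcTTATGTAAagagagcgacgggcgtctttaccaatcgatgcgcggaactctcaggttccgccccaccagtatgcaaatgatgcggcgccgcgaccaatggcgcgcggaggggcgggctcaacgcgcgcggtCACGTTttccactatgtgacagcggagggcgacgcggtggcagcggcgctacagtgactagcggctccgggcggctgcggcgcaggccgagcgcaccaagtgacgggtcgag
Cry2: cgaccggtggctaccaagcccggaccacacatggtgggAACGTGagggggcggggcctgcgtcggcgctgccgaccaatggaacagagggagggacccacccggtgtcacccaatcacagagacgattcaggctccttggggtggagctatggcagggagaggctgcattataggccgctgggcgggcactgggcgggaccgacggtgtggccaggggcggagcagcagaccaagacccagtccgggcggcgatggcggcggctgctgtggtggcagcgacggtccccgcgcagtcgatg
Nr1d1: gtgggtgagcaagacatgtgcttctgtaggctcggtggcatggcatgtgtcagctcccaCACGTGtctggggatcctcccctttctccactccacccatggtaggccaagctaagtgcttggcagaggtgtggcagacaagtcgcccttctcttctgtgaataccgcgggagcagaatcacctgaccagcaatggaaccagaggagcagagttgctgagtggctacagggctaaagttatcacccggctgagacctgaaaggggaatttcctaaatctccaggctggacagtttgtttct

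Total counts were 22168110 to 34718633 per library. The gene for ERalpha, Esr1, had 7 to 21 counts in the KO libraries and 70 to 139 in the WT libraries, so each library matched its labelled genotype. The 10 cardiomyocyte markers were present in every group, with summed levels of 32181 to 62626 CPM (counts per 1000000 of the library total, as adjusted by edgeR's TMM method). KO SHAM 4, WT SHAM 2 and WT SHAM 3 stood apart from the other 13 libraries. The mesothelial list summed to 60.9 to 132 CPM in these 3 libraries, against 7.65 to 30.7 CPM in the other 13, and the adipocyte hormone gene Adipoq had 11.1 to 45.6 CPM against 0 to 5.21 CPM. The summed adipocyte list of 10 genes overlapped (447 to 587 CPM against 419 to 563 CPM). The larger changes on leaving out these 3 libraries are given beside the results, and the part of other cell types in the results was not tested. In tissue of mixed cells, fewer cells of a type and less RNA per cell cannot be told apart.

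Of the activators, Arntl varied widely and Clock little. Arntl had 16.8, 9.14, 22.6 and 9.29 CPM in KO PAB and 21.0, 28.5, 28.6 and 15.4 CPM in KO SHAM. It had 38.5, 17.0, 21.6 and 31.9 CPM in WT PAB and 37.7, 45.3, 27.7 and 16.5 CPM in WT SHAM. The lowest values were both in KO PAB and the highest in WT SHAM, yet every pair of groups overlapped. The group means were 14.5 ± 6.50 CPM in KO PAB, 23.4 ± 6.38 in KO SHAM, 27.2 ± 9.72 in WT PAB and 31.8 ± 12.5 in WT SHAM (SD, n = 4). In this order KO PAB and KO SHAM differed by more than their SD, and the other neighbours by less. Clock, the DNA-binding partner of Arntl, averaged 65.9 ± 6.68 CPM in KO PAB, 79.6 ± 8.45 in KO SHAM, 77.3 ± 8.79 in WT PAB and 81.0 ± 7.84 in WT SHAM (SD, n = 4). Its highest library was only 1.46 times its lowest, against 4.96 times for Arntl.

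**Figure D1:**
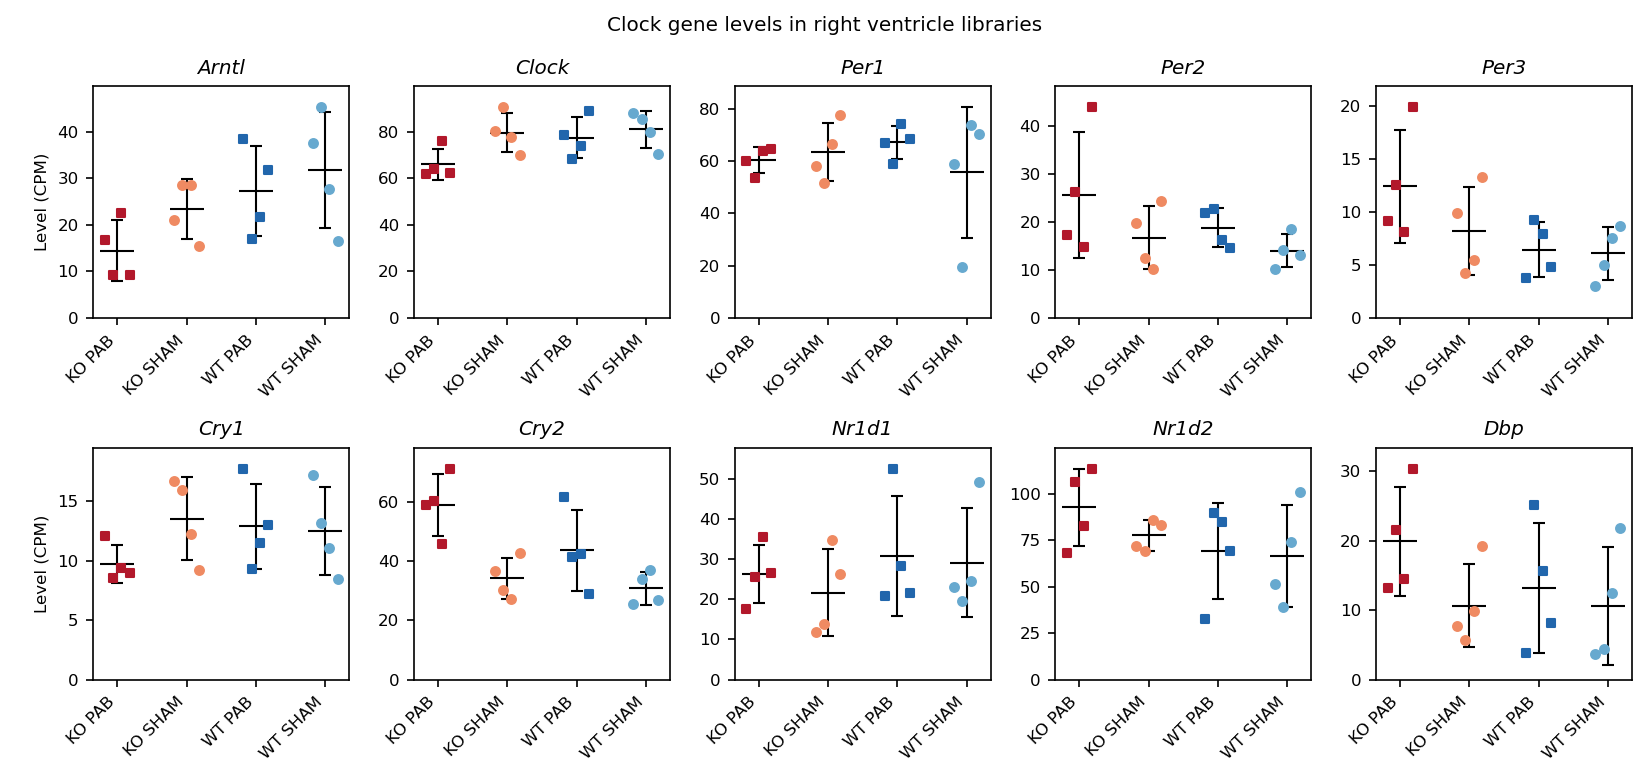
Levels of the 10 clock genes in CPM (y axis, from 0) in the 4 groups (x axis), with 1 point per library and the mean ± SD of 4 libraries in black. The groups overlap for most genes, while Cry2 is higher in every KO PAB library (45.7 to 71.3 CPM) than in any KO SHAM library (27.4 to 42.8 CPM). Of all tested genes 10.2% had no overlap between these 2 groups.

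Among the period genes, whose proteins are the rhythmic part of the repressor, Per3 had 9.15, 12.5, 8.14 and 19.9 CPM in KO PAB and 9.92, 4.26, 5.44 and 13.2 CPM in KO SHAM. In WT PAB it had 3.73, 9.27, 7.95 and 4.78 CPM and in WT SHAM 3.04, 5.03, 7.56 and 8.67 CPM. All groups overlapped, although KO PAB and KO SHAM held the 4 highest libraries. Per2 averaged 25.6 ± 13.2 CPM in KO PAB, 16.8 ± 6.57 in KO SHAM, 18.8 ± 4.00 in WT PAB and 14.0 ± 3.49 in WT SHAM (SD, n = 4), with 44.0 CPM in KO PAB 4 as its highest value. Per1, which is also induced quickly by cyclic AMP and glucocorticoid signals, lay between 51.8 and 77.6 CPM in 15 libraries and at 19.4 CPM in WT SHAM 2. The immediate early genes Fos and Egr1 were also lowest of all libraries in WT SHAM 2, at 9.48 and 21.5 CPM. This library is 1 of the 3 that stood apart, but KO SHAM 4 and WT SHAM 3 did not share these low values. They had 77.6 and 73.9 CPM of Per1, 143 and 175 CPM of Fos, and 283 and 208 CPM of Egr1.

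The cryptochromes, the strongest repressors of the activator, differed from each other. Cry2 had 58.9, 60.4, 45.7 and 71.3 CPM in KO PAB and 36.7, 30.1, 27.4 and 42.8 CPM in KO SHAM. It had 61.7, 41.5, 42.4 and 28.8 CPM in WT PAB and 25.5, 33.9, 37.1 and 26.9 CPM in WT SHAM. The KO groups did not overlap, and neither did they for 10.2% of all tested genes. In WT the libraries WT PAB 1, 2 and 3 lay above every WT SHAM library while WT PAB 4 lay among them. Cry1 averaged 9.75 ± 1.59 CPM in KO PAB, 13.5 ± 3.49 in KO SHAM, 12.9 ± 3.58 in WT PAB and 12.5 ± 3.70 in WT SHAM (SD, n = 4), and every pair of groups overlapped.

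The output gene Dbp had the widest range of the 10 genes, 8.13-fold over the 16 libraries. It had 13.2, 21.4, 14.5 and 30.3 CPM in KO PAB and 7.75, 5.76, 9.86 and 19.2 CPM in KO SHAM. It had 3.77, 25.1, 15.6 and 8.10 CPM in WT PAB and 3.73, 4.33, 12.4 and 21.9 CPM in WT SHAM. KO PAB held no library below 13.2 CPM and each other group held low and high libraries, and all groups overlapped. Of the REV-ERB genes, Nr1d1 averaged 26.3 ± 7.29 CPM in KO PAB, 21.7 ± 10.8 in KO SHAM, 30.9 ± 14.9 in WT PAB and 29.1 ± 13.6 in WT SHAM (SD, n = 4). Nr1d2 averaged 92.6 ± 20.9 CPM in KO PAB, 77.5 ± 8.43 in KO SHAM, 69.1 ± 25.8 in WT PAB and 66.4 ± 27.2 in WT SHAM (SD, n = 4), and for both genes every pair of groups overlapped. The SD within groups, on the log2(CPM + 1) scale, was 0.87 for Dbp, 0.58 for Nr1d1, 0.57 for Per3 and 0.54 for Arntl, and each was larger than that of 94.1% to 98.2% of the 11740 tested genes with a mean of at least 1 CPM. That of Clock, 0.15, exceeded only 29.4% of them, and the median over these genes was 0.19.

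This spread was shared between many of the genes. The arms were compared because their members peak at opposite times of the daily cycle. Across the 16 libraries the activators varied opposite to Dbp, Per3 and Nr1d2. Cry1 varied with the activators instead, and Per1 and Nr1d1 were only weakly related to Arntl. Arntl and Dbp had a Pearson r of −0.88 on the log2(CPM + 1) scale (two-sided permutation p 1e-05, the smallest that 100000 resamples can give, adjusted p 6e-05) and a Spearman rho of −0.86 (permutation p 4e-05). For Arntl and Per3 r was −0.91 (permutation p 2e-05) and rho −0.91 (permutation p 1e-05), and for Arntl and Nr1d2 r was −0.82 (0.00013) and rho −0.77 (0.00089). The partner Clock varied with Arntl, with r of 0.86 (permutation p 2e-05) and rho of 0.81 (permutation p 0.00027). Within WT PAB, for example, WT PAB 1 had 38.5 CPM of Arntl and 3.77 of Dbp, while WT PAB 2 had 17.0 CPM of Arntl and 25.1 of Dbp.

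**Figure D2:**
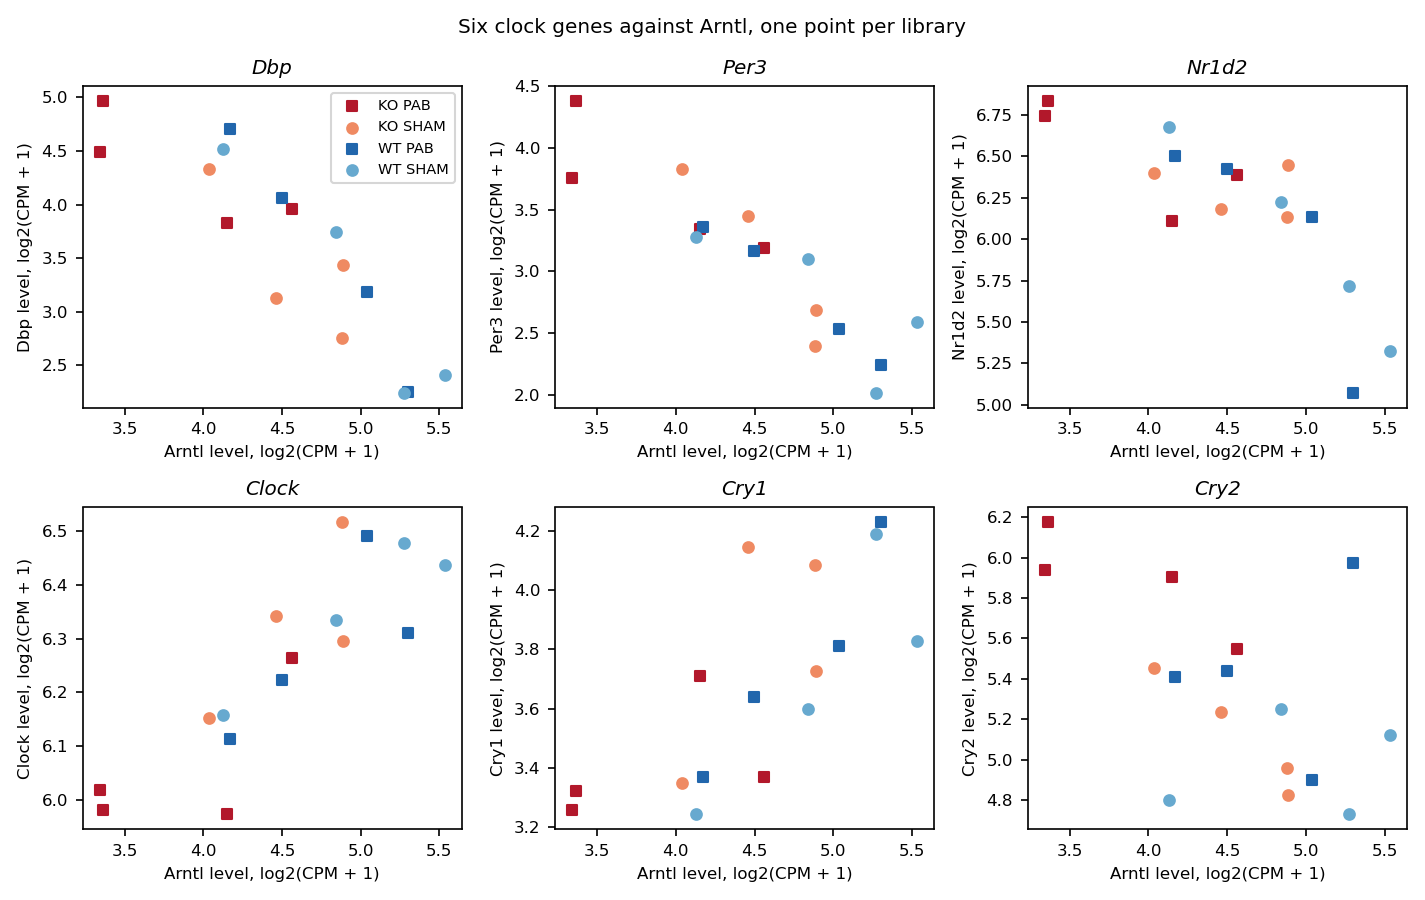
Levels of 6 clock genes (y axes) against that of Arntl (x axes), both as log2(CPM + 1), with 1 point per library and colours for the 4 groups. Dbp, Per3 and Nr1d2 fall with Arntl (r of −0.88, −0.91 and −0.82), Clock and Cry1 rise with it (0.86 and 0.74), and libraries of all 4 groups lie along each trend, while Cry2 is more scattered (−0.56).

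Of the 9 relations with Arntl, 7 passed at an adjusted p below 0.05 over the 9. Beside those above these were Cry1 (r 0.74, permutation p 0.00114, rho 0.81, permutation p 0.00029), Per2 (r −0.69, permutation p 0.00244, rho −0.63, permutation p 0.0107) and Cry2 (r −0.56, permutation p 0.0233, rho −0.46, permutation p 0.0775). Per1 (r −0.35, permutation p 0.202, rho −0.14, permutation p 0.610) and Nr1d1 (r −0.28, permutation p 0.287, rho −0.36, permutation p 0.172) did not pass. With the group means removed and permutation within groups, the relations with Dbp (r −0.88, permutation p 0.00011), Per3 (−0.86, 0.00046), Nr1d2 (−0.79, 0.00111), Clock (0.79, 0.00112), Cry1 (0.72, 0.0047) and Per2 (−0.60, 0.03) passed, and that with Cry2 did not (−0.23, 0.445). Without the 2 libraries farthest from the median Arntl level (KO PAB 2 and 4), r was −0.89 for Dbp, −0.88 for Per3, −0.78 for Nr1d2, 0.80 for Clock and 0.68 for Cry1. The relations with Per2 and Cry2 rest on these 2 libraries, since r without them was −0.43 and −0.25 and neither passed. Genes of 1 library share its depth and tissue piece.

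The pairs were also counted by arm, with Cry1, itself a repressor, counted apart. The gene lists place Cry1 with the Per genes and Cry2, so the counts below depend on this grouping. All 14 pairs of an activator with a Per, Nr1d or Dbp gene or Cry2 had a negative r (−0.91 to −0.27), and 10 passed. The negative sign for Arntl with Per1, which did not pass, rested on WT SHAM 2, since r was 0.12 without that library. With group means removed all 14 were negative and 6 passed. Among the 21 pairs of these 7 repressor and output genes 20 were positive, from −0.06 to 0.88, and 8 passed. With group means removed 17 of the 21 were positive and 7 passed. Cry1 went with the activators (2 of 2 pairs positive, 2 passed) and opposite to the other 7 genes (7 of 7 negative, 4 passed). Of these 7 pairs that with Dbp was strongest, with r of −0.91 (permutation p 1e-05, rho −0.94, permutation p 1e-05). With group means removed 1 of the 2 activator pairs of Cry1 passed. Of its 7 other pairs 6 were then negative and 4 passed. Nr1d1, weakly related to Arntl, was related to Cry1 with r of −0.70 (permutation p 0.00216, rho −0.70, permutation p 0.00299). Cry2 varied with Per2, with r of 0.82 (permutation p 6e-05, rho 0.83, permutation p 0.00019) and 0.78 with group means removed. Of the 36 pairs without Arntl, tested after the data were seen, 18 passed at an adjusted p below 0.05 over the 36, and 13 with the group means removed.

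**Figure D3:**
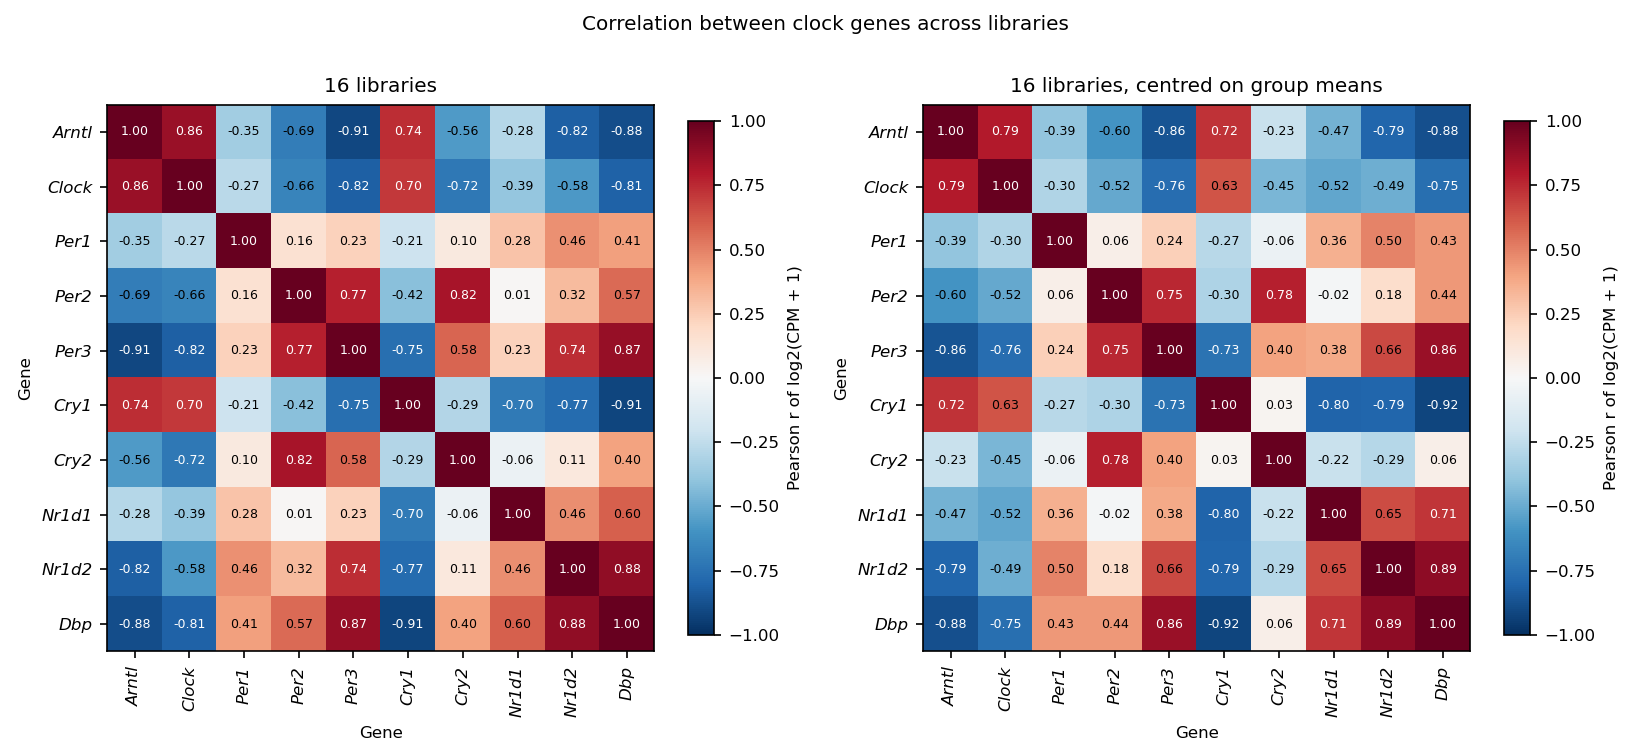
Pearson r between the 10 clock genes (both axes) over 16 libraries, left as measured and right with group means removed, from −1 in blue to 1 in red. Arntl, Clock and Cry1 form a positive block that is negative to Per3, Nr1d2 and Dbp in both panels, while Cry2 is close to Per2 (0.82 and 0.78) and, with group means removed, near 0 for Cry1 and Dbp (0.03 and 0.06).

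Banding was compared with sham surgery to ask how the clock genes respond to pressure load, first as the mean of both genotypes. Cry2 rose, with 0.64 as its log2 fold change (SE 0.15, adjusted p 0.0238, edgeR's quasi-likelihood test with Benjamini-Hochberg adjustment over 13458 genes). Its level was 59.1 ± 10.5 CPM in KO PAB, against 34.2 ± 6.90 CPM in KO SHAM, and 43.6 ± 13.6 CPM in WT PAB, against 30.8 ± 5.52 CPM in WT SHAM (SD, n = 4). It was the 1 of the 10 genes past the test, and this count of 1 is near the 5.09% of all tested genes that passed. DESeq2 and limma-voom also called Cry2 and no other member, and without the 3 sham libraries its log2 fold change was 0.83 (adjusted p 0.0229). Markers of the mesothelium, the outer lining of the heart, and of smooth muscle moved with banding as well. By edgeR 4 of the 10 mesothelial and 3 of the 8 smooth muscle genes fell, and 1 smooth muscle gene rose. Of all 13458 tested genes 249 fell and 436 rose. These calls depended on the tool, since DESeq2 called 8 mesothelial and 6 smooth muscle genes and limma-voom 0 and 1. The smooth muscle list summed to 234 to 333 CPM in KO PAB and 274 to 1533 CPM in KO SHAM, and to 287 to 382 CPM in WT PAB and 242 to 3087 CPM in WT SHAM. Without the 3 sham libraries the median log2 fold change was −1.44 for the mesothelial list, against −3.84 with them, and −0.21 for the smooth muscle list, against −1.38. The call of Cry2 was lost without KO PAB 2, KO PAB 4 or KO SHAM 2. Its log2 fold changes were then 0.64, 0.59 and 0.61, with adjusted p of 0.0517, 0.0558 and 0.0507.

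The other genes, save Cry1, had values of opposite sign in the arms, and none passed. The activators Arntl and Clock differed by log2 fold changes of −0.46 (SE 0.26, adjusted p 0.307) and −0.17 (SE 0.08, adjusted p 0.201). Dbp differed by 0.61 (SE 0.44), Per2 by 0.52 (SE 0.24), Per3 by 0.34 (SE 0.30), Nr1d1 by 0.18 (SE 0.28), Nr1d2 by 0.16 (SE 0.22) and Per1 by 0.10 (SE 0.20), with adjusted p of 0.214 to 0.807. Cry1 differed by −0.21 (SE 0.17, adjusted p 0.480). With Cry2, which passed, counted in, both activators were lower and 7 of the other 8 genes higher. The median log2 fold change was −0.31 for the 2 and 0.26 for the 8. For all tested genes it was −0.02, and 45.3% of them were higher. Since the clock genes vary together from library to library, their signs are not independent of each other.

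Within each genotype no member passed. In KO, where 0.632% of all tested genes passed, Cry2 differed by 0.79 (SE 0.21, adjusted p 0.0921), Dbp by 0.90 (SE 0.62), Arntl by −0.69 (SE 0.37), Per2 by 0.61, Per3 by 0.59, Cry1 by −0.47 and Clock by −0.27, with adjusted p of 0.238 to 0.548 for these 6. Nr1d1 differed by 0.28, Nr1d2 by 0.26 and Per1 by −0.07. In this comparison 2 members, Cry2 and Clock, had an unadjusted p below 0.05, as had 15.6% of all tested genes, DESeq2 called 1 (Cry2, adjusted p 0.0158) and limma-voom none. Cry2 also passed without the 3 sham libraries, at 0.91 on the log2 scale (adjusted p 0.0496), where Dbp was at 1.36 and Per3 at 0.92 without passing. It was the 1 member of which KO PAB and KO SHAM did not overlap, and 10.2% of all tested genes had no overlap there. In WT, where 0.00743% of genes passed, Cry2 differed by 0.50 (SE 0.21, adjusted p 0.397), Per2 by 0.42, Dbp by 0.32, Per1 by 0.27 and Arntl by −0.22 (adjusted p 0.823), and the remaining 5 by −0.07 to 0.09. Without the 3 sham libraries the value in WT was 0.011 for Arntl, 0.046 for Dbp, 0.062 for Per1, 0.69 for Per2 and 0.74 for Cry2. Cry2 alone had an unadjusted p below 0.05 in the fit of all libraries, as had 11.7% of all tested genes, and DESeq2 and limma-voom called none. No member's groups were free of overlap in WT, against 4.93% of all tested genes.

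Loss of ERalpha was compared with wild type to ask whether the clock genes depend on the receptor. No member passed in the mean of both surgeries, where 0.00743% of all tested genes did, by edgeR, DESeq2 or limma-voom, and 2 had an unadjusted p below 0.05, as had 4.93% of all tested genes. These were Arntl, at −0.68 on the log2 scale (SE 0.26, adjusted p 0.989), and Per3, at 0.69 (SE 0.30, adjusted p 0.989). Nr1d2 differed by 0.32, Per2 by 0.35, Dbp by 0.30, Cry2 by 0.29, Nr1d1 by −0.33, Cry1 by −0.14, Clock by −0.13 and Per1 by 0.02. Without the 3 sham libraries Dbp and Per1 turned sign, to −0.063 and −0.14. In the banded hearts Arntl averaged 14.5 ± 6.50 CPM in KO PAB and 27.2 ± 9.72 CPM in WT PAB (log2 fold change −0.91, SE 0.37, adjusted p 0.9995, SD with n = 4), while Per3 averaged 12.4 ± 5.30 CPM in KO PAB and 6.43 ± 2.61 CPM in WT PAB (log2 fold change 0.94, SE 0.42, adjusted p 0.9995). The others differed by 0.59 (Dbp), 0.44 (Per2 and Cry2), 0.42 (Nr1d2), −0.40 (Cry1), −0.23 (Clock and Nr1d1) and −0.15 (Per1). In the sham hearts Arntl differed by −0.45 (SE 0.36) and Per3 by 0.44 (SE 0.42, adjusted p 0.996 for both), but without the 3 sham libraries by −0.052 (SE 0.47) and 0.17 (SE 0.56). The others differed there by −0.43 (Nr1d1), 0.26 (Per2), 0.22 (Nr1d2), 0.19 (Per1), 0.15 (Cry2), 0.11 (Cry1), −0.03 (Clock) and 0.01 (Dbp), and without these libraries Nr1d1 by −0.85 and Dbp by −0.72. In these comparisons 0.00743% of all tested genes passed each time and no member by any of the 3 tools, with 3 members at an unadjusted p below 0.05 in banded hearts, beside 4.52% of all tested genes, and 0 in sham hearts, beside 2.03%. No member's groups were free of overlap, against 3.31% of all tested genes in banded and 1.26% in sham hearts.

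Whether the banding effect differed with genotype was tested as an interaction (effect in KO less effect in WT). No member passed and none had an unadjusted p below 0.05, and 0 of all 13458 genes passed (0% of those tested), by DESeq2 and limma-voom as well. The values ran from −0.52 for Cry1 (SE 0.34) and −0.47 for Arntl (SE 0.51) to 0.58 for Dbp (SE 0.87) and 0.50 for Per3 (SE 0.59), with 0.29 for Cry2 (SE 0.30), −0.35 for Per1, −0.20 for Clock, 0.19 for Per2 and 0.20 for Nr1d1 and Nr1d2. Without the 3 sham libraries they were −0.85 for Arntl, 1.31 for Dbp, 0.78 for Per3, 0.18 for Cry2, 0.62 for Nr1d1, 0.43 for Nr1d2 and −0.019 for Per1.

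Since many of the clock genes varied together over the libraries, the fit was repeated with each library's log2 Arntl level as a covariate. This choice was made after the data were seen. The mean banding effect on Cry2 was 0.59 with the covariate (SE 0.17, unadjusted p 0.00338, adjusted p 0.0921), close to 0.64 without it. That on Dbp was −0.01 (SE 0.24) with the covariate, against 0.61 without it, and that on Per3 −0.13 (SE 0.18), against 0.34. Nr1d2 had −0.15, Nr1d1 −0.02, Cry1 0.03, Per1 0.01, Clock −0.07 and Per2 0.24 with it. The difference of Per3 by genotype, 0.69 in the mean of both surgeries, was 0.02 (SE 0.20) with the covariate. With the covariate 1.91% of all tested genes passed for the mean banding effect, against 5.09% without it. The time of tissue collection, which the labels used here do not give, was not tested. The covariate also takes out any part of a group difference that runs with Arntl. How far a value moved follows from the gene's relation with Arntl, already seen in these libraries. With group means removed this r was −0.23 for Cry2, −0.88 for Dbp and −0.86 for Per3. The fit therefore cannot tell whether Cry2 stands apart from the variation that the clock genes share.

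**Figure D4:**
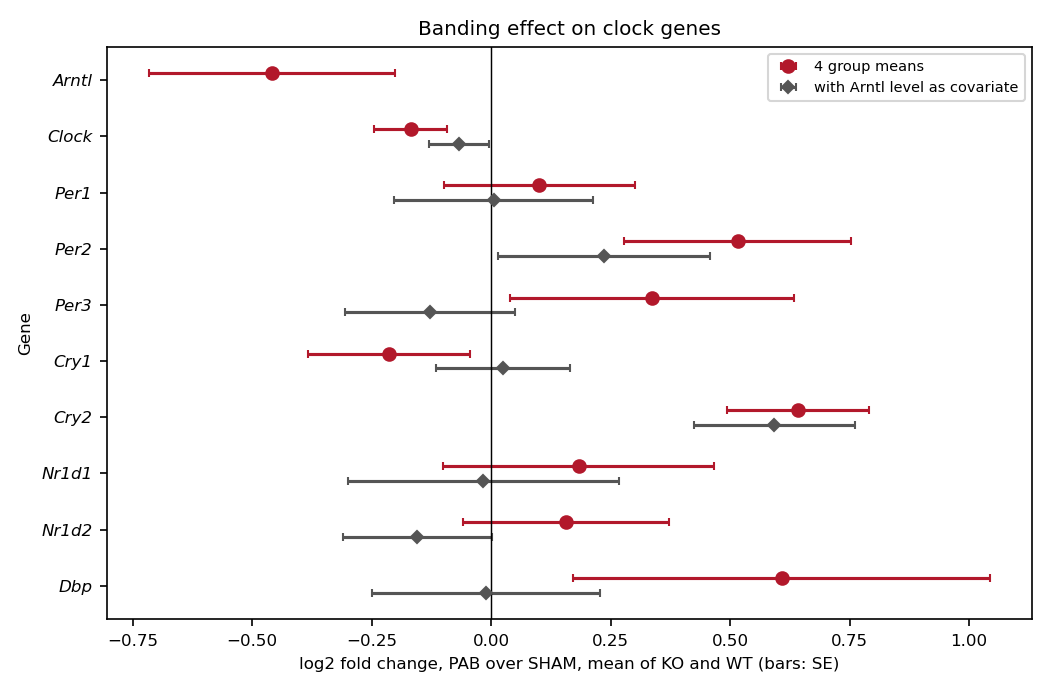
Log2 fold change of PAB over SHAM, mean of KO and WT (x axis), for the 10 clock genes (rows), with SE bars, from the fit of 4 group means (circles) and with the Arntl level as a covariate (diamonds, not for Arntl itself). Dbp and Per3 lie near 0 with the covariate (−0.01 and −0.13), while Cry2 lies at 0.64 without and 0.59 with it, where it did not pass. The covariate takes out any part of a difference that runs with Arntl, to which Dbp and Per3 are closely related (r of −0.88 and −0.91). Cry2 is less so (−0.56, and −0.23 with group means removed), so its smaller shift follows from that relation.

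Of 16 other clock genes 14 were tested, and none passed for the mean banding effect in edgeR, with 3 at an unadjusted p below 0.05 (22.7% of all tested genes had one), 1 called by DESeq2 and 0 by limma-voom. 7 were higher and 7 lower, with a median of 0.01. The smallest p were those of Npas2, which can stand in for Clock as the partner of Arntl (log2 fold change −0.66, SE 0.20, adjusted p 0.0752), of the D-box activator Tef, a relative of Dbp (0.29, SE 0.13, adjusted p 0.201), and of Bhlhe41, an E-box repressor (0.44, SE 0.20, adjusted p 0.210). Npas2 averaged 6.35 ± 2.91 CPM in KO PAB, 10.1 ± 2.23 in KO SHAM, 8.84 ± 2.13 in WT PAB and 13.8 ± 3.49 in WT SHAM (SD, n = 4). It thus had the sign of Arntl, and Tef that of Dbp.

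Of 16 genes known as clock outputs in heart or liver 15 were tested and 1 rose, Por, the reductase that supplies electrons to cytochrome P450 enzymes, by 0.52 (SE 0.12, adjusted p 0.0272). This count of 1 is near the 5.09% of all tested genes past the test. Por averaged 71.7 ± 8.15 CPM in KO PAB, against 49.9 ± 6.25 in KO SHAM, and 73.4 ± 22.1 CPM in WT PAB, against 51.3 ± 6.60 in WT SHAM (SD, n = 4). Its call was lost without KO PAB 1 or 2, KO SHAM 2 or 3, or WT PAB 1, and with the Arntl covariate (0.41, adjusted p 0.114). The median of the list was −0.03. The glucocorticoid response also induces Per1. Its 10 tested genes held none past the test in any tool and none at an unadjusted p below 0.05 (median −0.05). The smallest p were those of Dusp1 (−0.39), Mt1 (0.82, SE 0.46, at a mean of only 0.31 CPM) and Sgk1 (−0.20). Of the 9 tested immediate early genes, which share signals with Per1, 8 were lower and none passed in any tool or had an unadjusted p below 0.05 (median −0.29), and the smallest p were those of Fos (−0.68), Fosb (−0.80) and Jun (−0.32). In KO all 9 were lower (median −0.68), with Fos at 42.8 ± 9.88 CPM in KO PAB and 121 ± 25.6 CPM in KO SHAM (SD, n = 4), not past the test. In WT 8 of the 9 were higher (median 0.10), and without the 3 sham libraries the median in WT was −0.36. In the other 6 comparisons none of these 48 genes passed in edgeR, and 1 to 8 per comparison had an unadjusted p below 0.05. For banding these were 6 in KO, beside 15.6% of all tested genes, and 2 in WT, beside 11.7%. For genotype they were 8 in the mean of both surgeries (beside 4.93%), 5 in PAB (beside 4.52%) and 1 in SHAM (beside 2.03%). For the interaction there was 1, beside 1.76% of all tested genes.

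Genes outside the 10 that varied most like Arntl over the 16 libraries were sought among 10873 named genes with a mean of at least 1 CPM, as a description. The highest r was that of Npas2 (0.87), followed by Zfp329 (0.83), Tex9 (0.78), Ss18 (0.77) and Trim2 (0.76). The lowest was that of Tef (−0.93), followed by Ciart (−0.87), whose protein CHRONO represses the activator, Ppcs (−0.83), Sh2b3 (−0.82) and Slco5a1 (−0.79). Placed in the same ranking, Per3 was 2nd, Dbp 3rd and Nr1d2 6th from the negative end of 10882 genes, and Clock 2nd and Cry1 12th from the positive end. Per2 was 17th, Cry2 152nd, Per1 1390th and Nr1d1 1945th from the negative end. Dbp was followed most closely by Ciart (0.94), Tef (0.84), the fatty acid receptor gene Ppara (0.80), Cecr2 (0.77) and Tead2 (0.74), and ran most opposite to Trim2 (−0.83), Ss18 (−0.81), the ribosomal protein gene Rps7 (−0.80) and Txndc15 (−0.76). Ciart spanned 0.263 to 5.21 CPM and Tef 62.0 to 139 CPM over the libraries. Ciart had 1.24, 3.09, 2.42 and 5.21 CPM in KO PAB, 0.744, 0.499, 0.807 and 2.31 in KO SHAM, 0.769, 3.84, 1.82 and 0.771 in WT PAB and 0.323, 0.263, 1.25 and 2.63 in WT SHAM. As for Dbp, its groups overlapped and its highest sham libraries were KO SHAM 4 and WT SHAM 4, those with the least Arntl in their groups.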

How the data were processed

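Libraries were made from mRNA of 10 mg of right ventricle with a stranded kit, per the labels' protocols. The deposited values are expected counts per gene symbol, listed as whole numbers. The submitters' processing notes name the aligner STAR 2.5.3a, the quantifier RSEM 1.3.0 and, as the genome, Rnor_6.0. The annotation, strand setting and rounding are not given in the sources used here. Depth was 22168110 to 34718633 counts per library, and its counting error is small beside the spread between libraries for all 10 genes (66 to 3193 counts each).

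Counts were scaled by TMM, filtered with filterByExpr (min.count 10) and fitted with edgeR 4.0.16 in R 4.3.3 to 4 group means over all 16 libraries by its robust quasi-likelihood test. Genes were called at a Benjamini-Hochberg adjusted p below 0.05 over 13458 genes, and each SE is the log2 fold change over the square root of F. CPM are computed here. Correlations used log2(CPM + 1) and 100000 permutations. The members, gene lists and tests were chosen with earlier results of these data known. All 10 members are named. Of the 4 further lists, genes past the test or the 3 with the smallest p for the mean banding effect are named, and the 5 genes at each end of the likeness ranking to Arntl and Dbp, of which 1 is not reported here. Alternatives were DESeq2 1.42.0, voom from limma 3.58.1, size factors by RLE, 2 other filters, a replicate block, a fit to the 2 groups compared, leaving out 3 sham libraries or each library, and, after the data were seen, an Arntl covariate. The fit was tested on simulated data. Promoters are from RefSeq (GRCr8), in which Arntl is named Bmal1, and no coordinates of the counted genes are used.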

Additional observations from a re-analysis of the deposited data

Results flagged for a closer look

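Clock in KO PAB was flagged because 1 of the 4 libraries lay far from the rest. KO PAB 3 had 75.9 CPM, against 61.8, 63.8 and 62.2 CPM in the other KO PAB libraries, and it was also the KO PAB library with the most Arntl (22.6 CPM). Of 40 sets of 4 libraries examined (10 genes in 4 groups) it was the only 1 flagged, and chance flags about 1 in 20.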

How the results depend on the processing

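For the mean banding effect 1 member, Cry2, was called, and the count was 0 under the replicate block (log2 fold change 0.63, adjusted p 0.0554) and with the Arntl covariate (0.59, 0.0921), and 0 to 1 when 1 library was left out. For banding in KO no member was called, against 1 under DESeq2 and 1 without the 3 sham libraries that stood apart, and 0 to 1 when 1 library was left out (Cry2 was called without WT PAB 1). In the 5 other comparisons the count was 0 under every alternative run. Over all tested genes, calls for the mean banding effect were 685, against 1337 by DESeq2 and 257 with the covariate. For banding in KO they were 85, against 509 by DESeq2, 155 with only the 2 groups compared, 344 without the 3 sham libraries, and 0 with the covariate or the block. With 1 library left out they were 0 without KO PAB 2, KO PAB 4, KO SHAM 1 or KO SHAM 2, 1 without KO SHAM 3 and up to 275 without WT PAB 1, and the calls for the mean banding effect were 356 to 964, and less than 685 by over 1.5 times without KO PAB 2, KO PAB 4, KO SHAM 2, WT PAB 1 or WT SHAM 3. They were 1 for banding in WT, against 108 by DESeq2, and DESeq2 called 12 for the mean genotype effect and 5 for genotype in PAB, against 1 each. Deviations from the group means had an r of −0.62 to 0.56 between same-numbered libraries, and for 3 of 16 libraries the closest match bore the same number, so the numbers are not taken as pairs. The replicate block also ended the call of Por (0.50).

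No other scaling, tool or filter turned the sign of a member's value. With the Arntl covariate, signs turned for the mean banding effect in Per3 (−0.13), Cry1 (0.025), Nr1d1 (−0.016), Nr1d2 (−0.15) and Dbp (−0.011), for banding in KO in Per3 (−0.11), Nr1d1 (−0.034), Nr1d2 (−0.26) and Dbp (−0.090), for banding in WT in Per3 (−0.15) and Nr1d2 (−0.052), and for the mean genotype effect in Clock (0.016), Per1 (−0.14), Per2 (−0.11), Cry1 (0.21), Nr1d2 (−0.041) and Dbp (−0.43). Without the 3 sham libraries they turned for banding in KO in Per1 (0.043), for banding in WT in Arntl (0.011), Nr1d1 (−0.22) and Nr1d2 (−0.14), for the mean genotype effect in Per1 (−0.14) and Dbp (−0.063), and for genotype in SHAM in Clock (0.067), Per1 (−0.13), Nr1d2 (−0.0096) and Dbp (−0.72). None of these values passed the test in the fit of all libraries or under the alternative, and the cause was not tested.

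With 1 library left out, the mean banding effect ran from −0.038 to 0.18 for Per1 (below 0 without WT SHAM 2) and −0.0098 to 0.37 for Nr1d1 (below 0 without WT PAB 2). Banding in KO ran from −0.16 to 0.048 for Per1. Banding in WT ran from −0.0093 to 0.44 for Per1, −0.14 to 0.30 for Per3, −0.15 to 0.24 for Cry1, −0.30 to 0.47 for Nr1d1, −0.12 to 0.34 for Nr1d2 and −0.20 to 0.95 for Dbp. The mean genotype effect ran from −0.12 to 0.10 for Per1, genotype in PAB from −0.41 to 0.16 for Nr1d1, and genotype in SHAM from −0.093 to 0.029 for Clock, −0.089 to 0.36 for Per1, −0.031 to 0.31 for Cry1 and −0.44 to 0.64 for Dbp. The interaction ran from −0.21 to 0.44 for Per2, −0.18 to 0.58 for Nr1d1, −0.079 to 0.39 for Nr1d2 and −0.048 to 1.099 for Dbp.

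The r of Arntl and Cry2 was −0.56 without the 3 sham libraries (adjusted permutation p 0.0594), −0.23 with group means removed, −0.25 without the 2 libraries farthest from the median Arntl level, and −0.77 to −0.43 with 1 library left out, not passing without KO PAB 2, KO PAB 4 or WT SHAM 1. That of Arntl and Per2 was −0.43 without the 2 farthest libraries. That of Arntl and Per1 was 0.19 without the 3 sham libraries, −0.52 without the 2 farthest libraries, where it passed, and −0.45 to 0.12 with 1 library left out, above 0 without WT SHAM 2. The r of Arntl with Clock, Per3, Cry1, Nr1d2 and Dbp kept its sign and passed under every alternative run.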
